A study of Homo sapiens with 18 samples.

Results

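The genes described are 10 that encode matrix metalloproteases (MMP1, MMP2, MMP3, MMP9, MMP11, MMP14 and MMP15) and tissue inhibitors of metalloproteases (TIMP1, TIMP2 and TIMP3). They were taken by gene symbol from a table of 57820 genes, and 10 of 10 were found. After a filter on low counts 8 of them were among the 15307 genes tested, and MMP2 and MMP9 were too low to be tested. The table holds total RNA sequencing of MDA-MB-231, a human triple-negative breast cancer line of mesenchymal, invasive type. The cells were grown in L-15 medium with serum and glutamine and transfected by lipofection for 72 h. They received a control siRNA (siCtrl), a first siRNA against RagC (siRagC1) or a second one (siRagC2), with 6 libraries in each group and 18 in all. The design asks which genes change when RagC, a small GTPase that tethers the nutrient-sensing kinase complex mTORC1 to the lysosome, is silenced.

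All 3 groups are the same line and differ by the siRNA. The siCtrl libraries are labelled wild type and the others carry the same transfection, so an untransfected level was not analysed here. The sources used here give neither the siRNA sequences nor the kind of control siRNA. The labels number the libraries as biological replicates 1 to 6 but do not say that they came from separate cultures, so p-values weigh only the spread between these 18 samples, which may be technical. Library codes fall into 2 series that run across the groups, D1103 (replicates 1 and 2) and D1221 (replicates 3 to 6), and what the codes stand for is not given.

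Matrix metalloproteases are zinc enzymes that cut collagens and other proteins of the extracellular matrix, and are made as inactive precursors. Some are secreted, while MMP14 and MMP15 are anchored in the plasma membrane and act at the cell surface and at invadopodia, the protrusions with which invasive cells degrade matrix. TIMPs bind the active site and block it. TIMP2 has a further role, since at the cell surface it links the MMP2 precursor to MMP14, which then activates it.

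Libraries held from 14.8 M to 71.6 M counts. RRAGC, which encodes RagC, ran from 60.6 to 67.9 CPM in siCtrl (counts scaled to a common library total). It ran from 12.3 to 31.9 in siRagC1 and from 19.3 to 40.8 in siRagC2, with no overlap between siCtrl and either siRNA. By code series, siRagC1 libraries had 18.8 and 12.3 CPM in D1103 and from 23.3 to 31.9 in D1221. Those of siRagC2 had 19.3 and 21.6 CPM in D1103 and from 21.8 to 40.8 in D1221. Of 9 genes listed as expressed in this line, among them the keratin genes KRT8 and KRT18, 9 passed the filter on low counts. VIM stood at 4335 CPM and CD44 at 926 CPM in siCtrl, although SPARC reached only 1.03 CPM. Passing the filter does not by itself identify the line, since 5 of 8 luminal or epithelial markers passed it too. Of these 8 markers 3 (ESR1, PGR and FOXA1) were too low to be tested, while KRT19 stood at 358 CPM and ERBB2 at 96.0 CPM.

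The 250 bases before the transcription start are shown for MMP14, the most abundant member, and for MMP15 and MMP11, each of which passed the test with 1 siRNA. Capitals mark GC boxes (GGGCGG on either strand), the motif of Sp family factors. The sequences are RefSeq's on GRCh38.p14 and lie on the plus strand at chr14:22836335-22836584, chr16:58025504-58025753 and chr22:23772599-23772848.
MMP14: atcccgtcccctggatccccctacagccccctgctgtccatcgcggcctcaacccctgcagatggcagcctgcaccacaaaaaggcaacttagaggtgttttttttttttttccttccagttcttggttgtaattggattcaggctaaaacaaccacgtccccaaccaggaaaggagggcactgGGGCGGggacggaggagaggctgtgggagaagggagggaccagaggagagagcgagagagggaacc
MMP15: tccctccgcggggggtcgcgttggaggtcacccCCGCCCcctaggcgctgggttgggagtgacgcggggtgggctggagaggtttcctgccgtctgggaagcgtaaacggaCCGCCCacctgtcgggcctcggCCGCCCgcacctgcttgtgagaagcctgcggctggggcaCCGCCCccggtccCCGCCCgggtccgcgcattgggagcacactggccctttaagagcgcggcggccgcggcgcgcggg
MMP11: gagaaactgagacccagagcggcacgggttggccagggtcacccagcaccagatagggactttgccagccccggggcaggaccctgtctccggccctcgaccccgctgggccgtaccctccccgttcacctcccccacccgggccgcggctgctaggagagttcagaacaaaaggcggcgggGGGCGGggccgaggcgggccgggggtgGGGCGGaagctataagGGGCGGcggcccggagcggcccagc

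The promoter table held 5 of the 10 members (MMP11, MMP14, MMP15, TIMP1 and TIMP3). Motifs were searched on both strands from 250 bases before to 50 after the start, in 35116 promoters. The CLEAR core CACGTG, bound by TFEB and related factors, was in 7.26% of them and the extended CLEAR motif in 0.353%, and neither was in any of the 5 members. The AP-1 motif TGANTCA was in 7.71% and the TATA box TATAAA in 11.5%, again in 0 of 5 members. A variant AP-1 motif, TGAGTAA, was in 2.57% of promoters and in 1 of 5 members, TIMP1, where it began 101 bases before the start. GC boxes were in 5 of 5 members and in 45.0% of all promoters. This motif and the AP-1 variant were chosen after the sequences were seen. MMP14 had 1 in the printed stretch, 66 bases before the start, whereas MMP15 had 5 and MMP11 had 3. A window without a match says only that these letters are not in it.

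To order the members by level, CPM was divided by the length of the gene's exons in kilobases. In siCtrl, MMP14 stood at 221 ± 38.6 CPM per kb (SD, n = 6), TIMP1 at 169 ± 28.6, TIMP3 at 115 ± 44.1 and TIMP2 at 98.6 ± 3.81. The ranges of each neighbouring pair among these 4 overlapped. The collagenase MMP1 followed at 37.1 ± 7.13 CPM per kb, apart from TIMP2 above it. A wide step then led to MMP15 at 2.39 ± 0.448, MMP11 at 0.983 ± 0.259 and MMP3 at 0.437 ± 0.139. Over the longest coding transcript in place of all exons, MMP11 was at 2.22 CPM per kb, near MMP15 at 2.48. The gelatinases MMP9 and MMP2 lay at 0.0453 ± 0.0366 and 0.0270 ± 0.0191 CPM per kb. With the members ordered anew within each group, the ranges were apart for 4 of 9 neighbouring pairs in siCtrl and for 5 with either siRNA. In siRagC1 that order put TIMP2 above TIMP3.

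**Figure D1:**
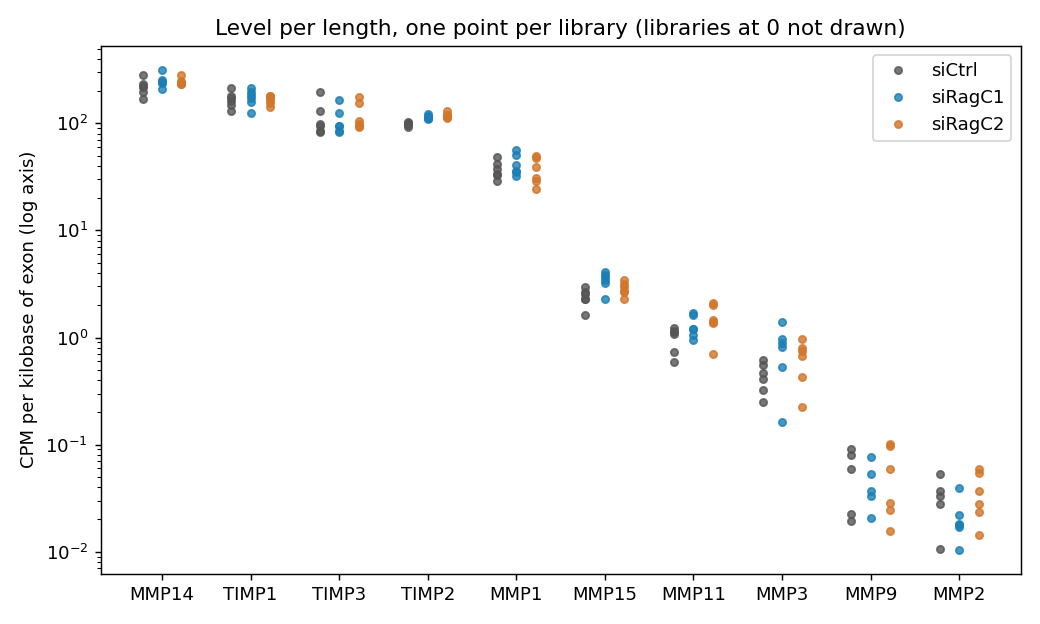
Level of each member in CPM per kb of exon (log axis) for the 6 libraries of siCtrl, siRagC1 and siRagC2, each library a point, with those at 0 not drawn. MMP14, the 3 TIMPs and MMP1 lie well above MMP15, MMP11 and MMP3, and MMP2 and MMP9 lie lowest in every group.

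MMP14 made up most of the measured protease message. The 7 proteases summed to 262 ± 43.3 CPM per kb in siCtrl, 298 ± 45.3 in siRagC1 and 288 ± 28.9 in siRagC2 (SD, n = 6), and MMP14 gave 84.3%, 84.1% and 85.6% of that sum. The 3 inhibitors summed to 382 ± 58.7, 397 ± 59.3 and 405 ± 51.2 CPM per kb. Transcript levels of inhibitors were thus higher than those of proteases in sum. The ratio of MMP14 to TIMP2 per kb was 2.24 ± 0.326 in siCtrl, 2.19 ± 0.273 in siRagC1 and 2.07 ± 0.193 in siRagC2, differences within 1 SD. That of MMP14 to TIMP1, an inhibitor known to act poorly on membrane-anchored proteases, was 1.32 ± 0.113, 1.44 ± 0.131 and 1.48 ± 0.132. These ratios were not tested and depend on the transcript lengths used.

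With either siRNA the members that passed the test were all higher than in siCtrl. A gene passed at a p under 0.05 in edgeR's quasi-likelihood test, adjusted by Benjamini and Hochberg's method across the whole table. By this rule 2 of 8 members were higher with siRagC1 (TIMP2 and MMP15) against 1.41% of all genes. With siRagC2 2 of 8 were higher (TIMP2 and MMP11) against 1.87% of all genes. None was lower with either siRNA, against 0.627% and 1.36% of all genes. At an unadjusted p under 0.05, 4 members were higher with siRagC1 and 2 with siRagC2, and 0 lower, where 17.1% and 18.5% of all genes passed in either direction. Both comparisons use the same siCtrl libraries. Of these, replicate 6 held the lowest value of MMP11, MMP14, MMP15, TIMP1 and TIMP2. MMP1, MMP3 and TIMP3 were lowest in other siCtrl libraries. Counting every tested member, 7 of 8 log2 fold changes were positive with siRagC1 and 6 of 8 with siRagC2, beside 51.7% of all genes in each. The members' median was 0.19 with siRagC1 and 0.21 with siRagC2, against 0.0051 and 0.0047 over all genes. The members were chosen with earlier results of these data known, so the values set beside all genes are description and no test. In bulk RNA, a change in the number of cells that express a gene and a change in RNA per cell cannot be told apart.

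**Figure D2:**
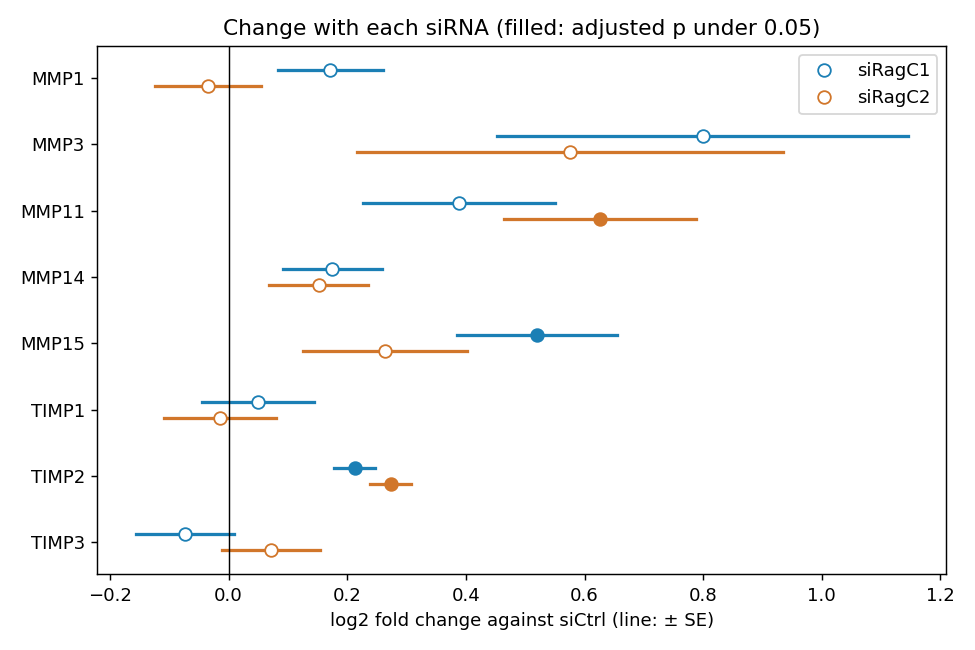
Log2 fold change against siCtrl, with its standard error, for the 8 tested members with siRagC1 and siRagC2 (edgeR, 18 libraries). Filled points passed an adjusted p of 0.05, namely TIMP2 with both siRNAs, MMP15 with siRagC1 and MMP11 with siRagC2.

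TIMP2, the inhibitor that both blocks MMP14 and serves it as an adaptor, rose with both siRNAs. It ran from 517 to 580 CPM in siCtrl (median 561), from 620 to 693 in siRagC1 (median 633) and from 635 to 739 in siRagC2 (median 665). Every library of either siRNA was above every siCtrl library, which held for 0.516% and 0.601% of all genes in the higher direction. The log2 fold change was 0.21 ± 0.03 (SE, adjusted p = 0.00240, 1.16-fold) with siRagC1. With siRagC2 it was 0.27 ± 0.03 (adjusted p = 0.000396, 1.21-fold), and TIMP2 was higher in 6 of 6 same-numbered pairs with each. The call held in 18 of 18 fits that left out a single library, with adjusted p up to 0.0127 for siRagC1 and 0.00235 for siRagC2. In the D1103 libraries alone it passed with both siRNAs (0.24, adjusted p = 0.0449, and 0.29, adjusted p = 0.00978). In the D1221 libraries alone the values were 0.20 (adjusted p = 0.266) and 0.26 (adjusted p = 0.0691). TIMP2 shares 367 exon bases with an antisense gene and 198 with CEP295NL, whose mean counts were 9.56 and 2.94 per library.

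MMP14, the membrane-anchored collagenase that TIMP2 serves, did not pass the test. It ran from 761 to 1270.5 CPM in siCtrl (median 996), from 926 to 1409 in siRagC1 (median 1085) and from 1037 to 1273 in siRagC2 (median 1065). The ranges overlapped broadly. The log2 fold changes were 0.17 ± 0.08 (SE, adjusted p = 0.294) and 0.15 ± 0.08 (adjusted p = 0.355). MMP14 was higher in 6 of 6 same-numbered pairs with each siRNA, by as little as 1272.5 against 1270.5 CPM in replicate 2 with siRagC2. The share of all genes at 6 of 6 pairs was not computed, and pairing within a series is not established. Blocked by replicate number the log2 fold changes were 0.18 ± 0.05 (adjusted p = 0.05005, just above the threshold) and 0.17 ± 0.05 (adjusted p = 0.0697). With no filter on low counts both passed (adjusted p = 0.00973 and 0.0456), where 1.92% and 1.76% of all genes were higher.

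MMP15, a second membrane-anchored protease at a far lower level, rose with siRagC1. It ran from 7.20 to 12.99 CPM in siCtrl (median 10.7), from 10.1 to 18.2 in siRagC1 (median 15.8) and from 10.2 to 15.1 in siRagC2 (median 12.5). The highest siCtrl libraries overlapped the lowest of each siRNA. The log2 fold change was 0.52 ± 0.13 with siRagC1 (SE, adjusted p = 0.0488), higher in 6 of 6 pairs, and 0.26 ± 0.14 with siRagC2 (adjusted p = 0.320), higher in 5 of 6. The siRagC1 call was kept without siCtrl replicate 3, siCtrl replicate 4, siRagC1 replicate 6, siRagC2 replicate 2 or siRagC2 replicate 6. It was lost without any of the other 13 libraries, where values ran from 0.44 to 0.54 and adjusted p from 0.0550 to 0.129. In D1103 alone it was 0.72 (adjusted p = 0.00270) and in D1221 alone 0.41 (adjusted p = 0.730).

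MMP11, a stromelysin that furin activates inside the cell, rose with siRagC2. It ran from 3.06 to 6.40 CPM in siCtrl (median 5.68), from 4.90 to 8.86 in siRagC1 (median 6.25) and from 3.64 to 10.99 in siRagC2 (median 7.44). The lowest siRagC2 value, in replicate 6, lay inside the siCtrl range. The log2 fold change was 0.63 ± 0.16 with siRagC2 (SE, adjusted p = 0.0370), higher in 6 of 6 pairs. With siRagC1 it was 0.39 ± 0.16 (adjusted p = 0.217), higher in 5 of 6. A block for the replicate number made it 0.42 ± 0.12, which passed (adjusted p = 0.0491). That block called 503 of 15307 genes higher, against 216 in the main fit. The siRagC2 call was lost without siCtrl replicate 1, 2, 5 or 6 and without siRagC2 replicate 1, 2, 3, 4 or 5, in turn, where values ran from 0.56 to 0.62 and adjusted p from 0.0605 to 0.111. In D1103 alone MMP11 passed with both siRNAs (0.61, adjusted p = 0.00956, and 0.91, adjusted p = 0.000240). In D1221 alone it passed with neither (0.25, adjusted p = 0.850, and 0.43, adjusted p = 0.582).

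MMP11 overlaps CHCHD10 on the opposite strand by 218 exon bases, and CHCHD10 had a mean of 1062 counts per library. Whether the counting used strand is not given, so reads from the shared stretch cannot be told apart. CHCHD10 itself had log2 fold changes of 0.14 ± 0.09 (SE, adjusted p = 0.456) with siRagC1 and 0.01 ± 0.09 (adjusted p = 0.986) with siRagC2. Its part in the MMP11 values was not tested.

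**Figure D3:**
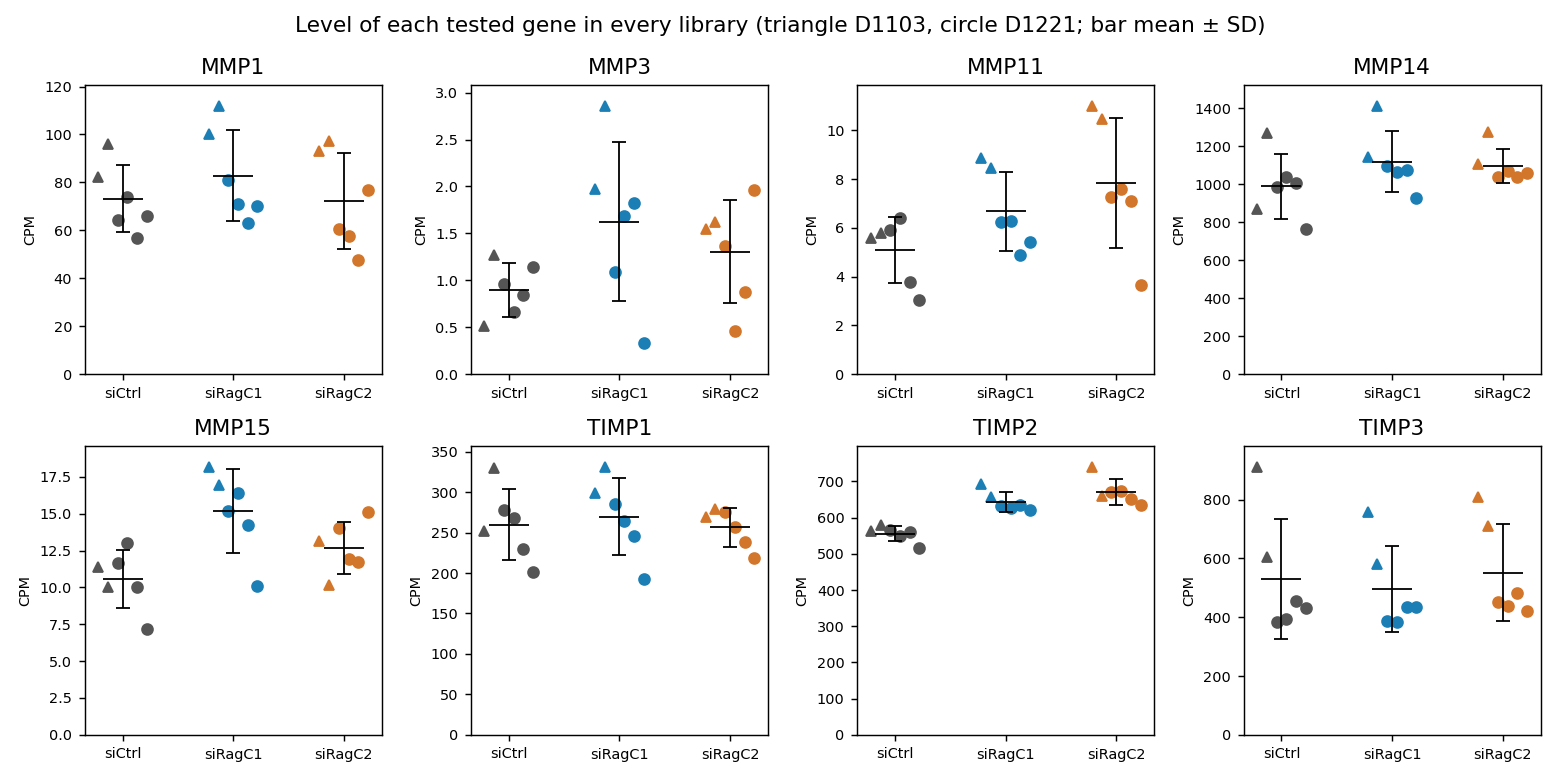
CPM of the 8 tested members in the 18 libraries, by group, on an axis from 0 for each gene. Triangles are D1103 and circles D1221, and bars give the mean ± SD. TIMP2 in siRagC1 and siRagC2 lies above all siCtrl libraries, while MMP14, MMP15, MMP11 and the others overlap siCtrl.

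The secreted collagenase MMP1, which opens fibrillar collagens, did not pass with either siRNA. It ran from 57.0 to 95.8 CPM in siCtrl, from 63.2 to 112 in siRagC1 and from 47.7 to 97.2 in siRagC2, with medians of 69.9, 76.1 and 68.8. The log2 fold changes were 0.17 ± 0.09 (SE, adjusted p = 0.334) and -0.03 ± 0.09 (adjusted p = 0.889). All 3 ranges overlapped.

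MMP3, a stromelysin that also activates other precursors, was near the lower limit of measurement. Its CPM ran from 0.514 to 1.27 in siCtrl, from 0.335 to 2.85 in siRagC1 and from 0.458 to 1.97 in siRagC2, with medians of 0.899, 1.75 and 1.46. The log2 fold changes, 0.80 ± 0.35 (SE, adjusted p = 0.237) and 0.58 ± 0.36 (adjusted p = 0.427), had the widest errors of the 8 members. Without siRagC1 replicate 6, which held the lowest value, MMP3 passed with siRagC1 (1.00 ± 0.27, adjusted p = 0.0343). Leaving that library out gave 522 genes higher and 371 lower over the whole table, against 216 and 96 with all libraries. With siRagC1 MMP3 also passed in D1103 alone (1.36, adjusted p = 0.0304) but not in D1221 alone (0.36, adjusted p = 0.892). It passed with no filter on low counts too (0.80 ± 0.19, adjusted p = 0.00230).

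The gelatinases MMP2 and MMP9, which cut denatured and basement membrane collagens, were at the limit of detection. MMP2 had 0 to 7 counts per library in siCtrl, 2 to 8 in siRagC1 and 2 to 21 in siRagC2. MMP9 had 0 to 9, 0 to 7 and 1 to 10. With no filter on low counts neither passed with either siRNA in edgeR. The log2 fold changes of MMP2 were then -0.35 ± 0.52 (SE, adjusted p = 0.837) and 0.44 ± 0.49 (adjusted p = 0.768). Those of MMP9 were -0.29 ± 0.56 (adjusted p = 0.898) and 0.28 ± 0.53 (adjusted p = 0.904).

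TIMP1, a secreted inhibitor, and TIMP3, which stays bound to the matrix, did not pass with either siRNA. TIMP1 ran from 201 to 330.2 CPM in siCtrl, from 192 to 331 in siRagC1 and from 218 to 279 in siRagC2. Its log2 fold changes were 0.05 ± 0.09 (SE, adjusted p = 0.836) and -0.01 ± 0.09 (adjusted p = 0.959). TIMP3 ran from 384 to 910.3 CPM in siCtrl, from 385 to 759 in siRagC1 and from 422 to 808 in siRagC2. Its log2 fold changes were -0.07 ± 0.08 (SE, adjusted p = 0.704) and 0.07 ± 0.08 (adjusted p = 0.715). Both genes lie in an intron of a synapsin gene on the other strand, SYN1 and SYN3, with which they share 0 exon bases.

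Between the siRNAs 0 of 8 members passed in edgeR, and 0 in DESeq2 or limma-voom, against 0.00% of all genes in edgeR. At an unadjusted p under 0.05 there was 1 (7.75% of all genes), MMP1, higher in siRagC1 than in siRagC2 by a log2 difference of 0.21 ± 0.09 (adjusted p = 0.608). TIMP2 was lower in siRagC1 than in siRagC2 in 6 of 6 pairs, by -0.06 ± 0.03 on the log2 scale (adjusted p = 0.708). That a member passed with 1 siRNA and not with the other therefore does not show that the siRNAs differed. In D1103 alone MMP15 was higher in siRagC1 than in siRagC2 (0.60 ± 0.12, adjusted p = 0.0121).

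The members' levels also differed between the code series. In D1221 against D1103, 6 of 8 members were lower and 0 higher, where 25.0% of all genes were lower and 23.8% higher. TIMP3 had the largest difference, -0.78 ± 0.07 on the log2 scale (SE, adjusted p = 7.73e-08). In siCtrl it stood at 758 ± 215 CPM in D1103 (SD, n = 2) and 416 ± 33.4 in D1221 (n = 4). MMP1 differed by -0.55 ± 0.07 (adjusted p = 9.07e-06) and MMP11 by -0.53 ± 0.13 (adjusted p = 0.00232). For TIMP3 and MMP1 all D1221 libraries lay below all D1103 libraries, which held for 6.55% of all genes. TIMP1 (-0.25 ± 0.08, adjusted p = 0.0148), MMP14 (-0.22 ± 0.07, adjusted p = 0.0182) and TIMP2 (-0.09 ± 0.03, adjusted p = 0.0201) differed less. This fit takes the 18 libraries as independent, although same-numbered libraries were taken as pairs and the series separates 2 numbers from 4. With the replicate number as a random effect in limma-voom, where same-numbered libraries correlated at 0.147, the same 6 members were lower, with adjusted p from 3.19e-07 for TIMP3 to 0.0370 for TIMP2. In that fit 21.8% of all genes were lower and 20.5% higher.

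The siRNA effect itself was compared between the series with an interaction term. For either siRNA 0 of 8 members passed in edgeR, DESeq2 or limma-voom, against 0.00% of all genes in edgeR. At an unadjusted p under 0.05 there were also 0, beside 2.03% and 6.66% of all genes for siRagC1 and siRagC2. The weaker calls in D1221 alone are thus not shown to be a different effect. For RRAGC itself the interaction was 0.92 ± 0.26 (SE, unadjusted p = 0.00236 in edgeR) with siRagC1, a smaller fall in D1221. With siRagC2 it was 0.70 ± 0.26 (unadjusted p = 0.0141), and neither passed after adjustment. Whether this bears on the members was not tested.

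**Figure D4:**
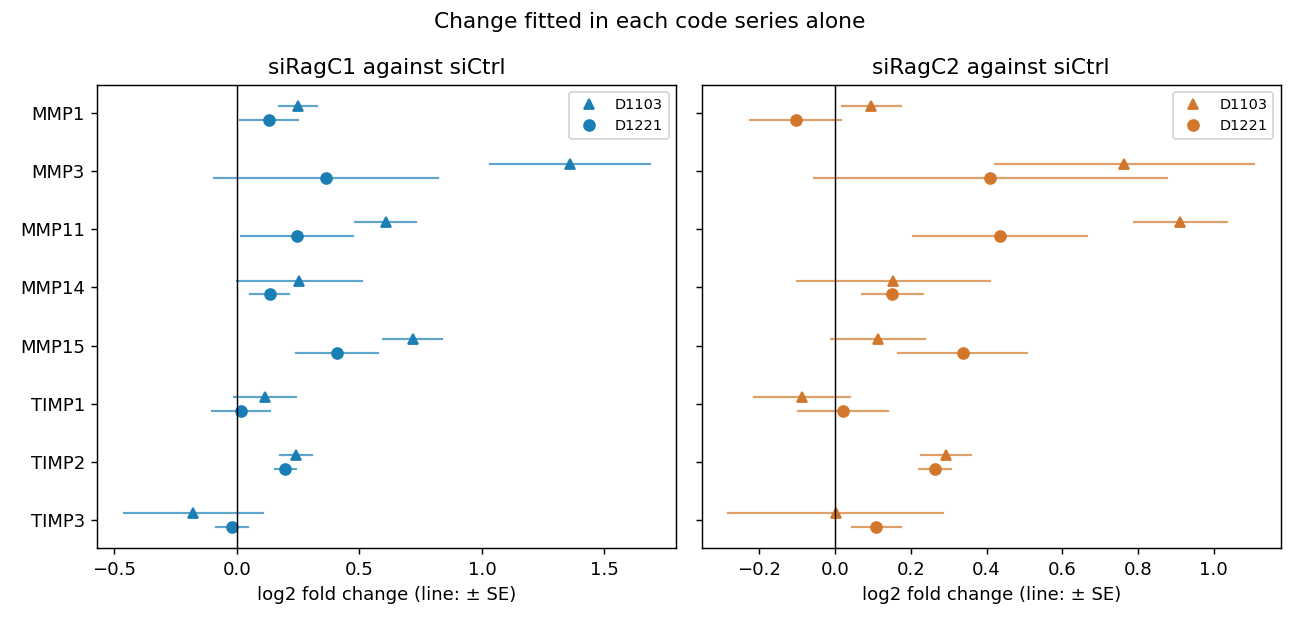
Log2 fold change against siCtrl with its standard error, computed in the D1103 libraries alone (2 per group) and in the D1221 libraries alone (4 per group), for the 8 tested members. TIMP2 has similar values in both, whereas MMP3 and MMP11 with both siRNAs and MMP15 with siRagC1 have larger values in D1103.

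Genes listed outside the members are set beside the share of all genes that passed in edgeR. That share was 1.41% higher and 0.627% lower with siRagC1, and 1.87% and 1.36% with siRagC2. Of 18 other metalloproteases and inhibitors (MMP7 to MMP28 outside the members, and TIMP4), 6 were tested and 0 passed with either siRNA in edgeR, DESeq2 or limma-voom. These 6 genes had 1 at an unadjusted p under 0.05 for each siRNA, where 17.1% and 18.5% of all genes had one. Their median log2 fold change was 0.10 with siRagC1 and 0.0880 with siRagC2, where 6 of 6 were positive, and their median size regardless of sign was 0.18 and 0.0880. Over all genes that size was 0.0791 and 0.0808, and over the 8 members 0.19 and 0.21. The most abundant were MMP16, a further membrane-anchored enzyme at 14.4 ± 2.16 CPM in siCtrl (0.18 ± 0.11, adjusted p = 0.408, with siRagC1), and MMP19 at 9.88 ± 1.15 (-0.05 ± 0.07, adjusted p = 0.797). Of 23 activators, inhibitors and clearance receptors 15 were tested. SERPINE2, an inhibitor of serine proteases, was higher with siRagC2 (0.19 ± 0.04, adjusted p = 0.0176, 6 of 6 pairs). None passed with siRagC1, where 4 had an unadjusted p under 0.05, beside 17.1% of all genes. With siRagC1 DESeq2 called 1 of the 15 higher and 1 lower, and limma-voom 1 higher. Over all 15307 genes DESeq2 called 441 higher and 331 lower with siRagC1, and limma-voom 228 and 113. The list medians were 0.0092 and 0.016, and the median sizes regardless of sign 0.0868 and 0.13.

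Of 25 transcription factors of metalloprotease promoters, 25 were tested and 3 were lower with siRagC1, against 0.627% of all genes, with 0 higher. These were ETS1 (-0.23 ± 0.06, adjusted p = 0.0382), the NF-kappaB subunit gene NFKB1 (-0.14 ± 0.04, adjusted p = 0.0408) and MITF, a relative of TFEB (-0.35 ± 0.07, adjusted p = 0.0166). With siRagC2 0 of 25 passed in edgeR, DESeq2 or limma-voom, with 4 at an unadjusted p under 0.05, where 18.5% of all genes had one. The same 3 had values of -0.08 (adjusted p = 0.488), -0.09 (adjusted p = 0.201) and -0.19 (adjusted p = 0.163). The list medians were -0.0067 and 0.0076.

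Of 29 genes of protease delivery, invadopodia and lysosome exocytosis 28 were tested, and VAMP7 was listed at 0 in every library. How its reads were counted is not given, so this does not show that VAMP7 RNA was absent. CD63, a membrane protein of late endosomes, was higher with siRagC1 (0.16 ± 0.03, adjusted p = 0.0155, 6 of 6 pairs) and had 0.08 with siRagC2 (adjusted p = 0.191). No other gene of that list passed in edgeR, where 4 had an unadjusted p under 0.05 with siRagC1 and 6 with siRagC2, beside 17.1% and 18.5% of all genes. DESeq2 called 2 with siRagC1 and 0 with siRagC2, and limma-voom 1 and 0, all of them higher. Over all 15307 genes DESeq2 called 441 higher with siRagC1 and limma-voom 228. The list medians were 0.039 and 0.040.

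Genes with profiles most like those of the members were ranked by Pearson's r of log2 CPM over the 18 libraries, after the means of each code series were removed. These are descriptions over libraries that share groups and depth. For MMP14 they were PXDN (0.96), GALNT6 (0.94) and VEGFA (0.94). For TIMP2 they were PDK2 (0.94), RTN4RL2 (0.93) and MGAT4B (0.93). MMP15 was most like PLEKHM1 (0.95), CYSTM1 (0.94) and CD276 (0.94), and MMP11 most like PTPRE (0.90), NNMT (0.90) and CMTM3 (0.89). Among the members, MMP11 with TIMP2 reached 0.72 and MMP14 with TIMP1 0.68, while TIMP3 ran against MMP1 (-0.67), MMP14 (-0.63) and TIMP1 (-0.61).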

How the data were processed

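RNA of 18 libraries, made from 500 ng of total RNA each, was analysed from 1 table of raw counts per gene that the authors deposited. Per the submitters' processing notes, cutadapt 0.6.2 and STAR 2.7.6a were used on GRCh37/hg19. Neither the labels nor the notes used here name a counting tool, a strand setting or an annotation release. Groups and replicate numbers came from the labels, and the code series from the library codes.

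The counts were filtered with filterByExpr and scaled by TMM in edgeR 4.0.16 (R 4.3.3). All 18 libraries entered 1 robust quasi-likelihood fit with terms for group and code series, and p-values were adjusted by Benjamini and Hochberg's method over 15307 genes. The effect of the series on the siRNA response was tested as an interaction contrast. CPM used TMM-scaled library sizes, and log2 CPM a pseudocount of 0.5. Exon lengths came from GENCODE 29 on GRCh38, and only the lengths and exon overlaps were used. DESeq2 1.42.0, limma-voom (limma 3.58.1), other scaling, filters, designs and single libraries left out were alternatives. A random effect for the replicate number was added after seeing the data. The fit was tested on simulated counts.

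Members, gene lists and the naming rule were chosen with earlier results of these data known. Named were all 10 members, RRAGC, each listed gene that passed with either siRNA (where none passed, the 2 most abundant), and the 3 most alike genes with a mean of at least 5 CPM. VIM, CD44, SPARC, KRT8, KRT18, the untested markers, VAMP7 and the genes overlapping members were named after their values were seen. Of 112 other listed genes 110 were matched, and MMP12 and MMP28 were not. Protein sequences were not analysed here.

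Same-numbered libraries were checked for pairing by the correlation of their deviations from the group means. All were above 0.1 (0.106 to 0.705 for siCtrl with siRagC1, 0.172 to 0.578 for siCtrl with siRagC2, 0.289 to 0.656 between the siRNAs), so the numbers were taken to pair the samples, from the data and not from the labels. Group means leave the code series in, and the numbers also separate the series, so these values cannot show pairing beyond the series. After code series was removed the correlations ran from -0.111 to 0.378, and pairing within a series is not established.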

Additional observations from a re-analysis of the deposited data

Results flagged for a closer look

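In the group of 6 siRagC2 libraries, MMP14 in replicate 2 stood apart at 1273 CPM, where the nearest library had 1105 and the lowest 1037. Without it, the MMP14 log2 fold change with siRagC2 was 0.13 ± 0.09 (SE, adjusted p = 0.492 in edgeR). TIMP2 in siRagC2 replicate 1 stood apart at 739 CPM, where the nearest library had 672 and the lowest 635. Without it, the TIMP2 log2 fold change was 0.25 ± 0.03 (adjusted p = 0.00187). Of 30 groups checked these were 2, and chance alone sets apart about 1 in 20 groups of like samples. That rate ignores code series: both libraries are of D1103, in which MMP14 and TIMP2 were higher than in D1221.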

How the results depend on the processing

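Of the members' log2 fold changes under the alternatives, 657 of 717 kept their direction and their side of the threshold. That total includes changes not called in the main fit that stayed uncalled, so it says little about the calls. MMP15 with siRagC1 lost its call without 13 of 18 single libraries and in 5 of 12 other settings. MMP11 with siRagC2 lost it in 9 of 18 and 4 of 12. TIMP2 lost it in 0 of 18 with each siRNA, and in 2 of 12 with siRagC1 and 1 of 12 with siRagC2. The number of members higher with siRagC1 was 2, and it became 5 with no low count filter (MMP3, MMP11 and MMP14 besides), 4 in D1103 alone, 1 with limma-voom, 1 with the compared groups alone, 1 at an adjusted p under 0.01, 0 with no code series term and 0 in D1221 alone. Leaving out single libraries gave 1 to 3. The number higher with siRagC2 was 2, and it became 1 with no code series term, with the compared groups alone or at an adjusted p under 0.01, and 0 in D1221 alone, and 3 with no low count filter (MMP14 besides). Single libraries gave 1 to 2. Over all genes, D1221 alone called 0 of 15016 higher with siRagC1 and 1 with siRagC2. No code series term called 6 and 12 of 15307, so the losses in both settings were not particular to the members. No low count filter called 1.92% of all genes higher with siRagC1 and 1.76% with siRagC2. D1103 alone called 2.12% and 3.82%, beside 1.41% and 1.87% in the main fit. For siRagC1, limma-voom called 228 of 15307 genes higher. The compared groups alone called 100 of 15038 and 201 of 14664, and an adjusted p under 0.01 called 46 and 63 of 15307. Between the siRNAs, 0 became 1 with no low count filter (MMP1) and 1 in D1103 alone (MMP15). Over all genes, where the main fit called 0, no low count filter called 155 higher and 64 lower of 31112. D1103 alone called 134 and 97 of 16175. In D1221 against D1103, 6 lower members became 4 to 7 without single libraries.

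The sign of a member's change turned in 16 of the 717, at values of at most 0.0955 in size. With siRagC2, MMP1 was 0.10 in D1103 alone and TIMP1 0.0211 in D1221 alone. Between the siRNAs in D1221 alone, MMP3 was -0.0461, MMP14 -0.0172 and TIMP1 -0.0050. Without single libraries, TIMP1 ran from -0.0011 to 0.12 and TIMP3 from -0.13 to 0.0143 with siRagC1, MMP1 from -0.10 to 0.0276 and TIMP1 from -0.0661 to 0.0324 with siRagC2, and MMP14 from -0.0261 to 0.0606 between the siRNAs.

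With the replicate block in place of code series, 3 members were higher with siRagC1 (MMP11 besides TIMP2 and MMP15) and 2 with siRagC2, and no other member's call changed. Over the whole table this block called 503 and 560 of 15307 genes higher, against 216 and 287 in the main fit. Order by level depends on length: over the longest coding transcript, a choice added after seeing the data, TIMP2 (152 CPM per kb in siCtrl) lay above TIMP3 (115), and MMP11 moved from 0.983 to 2.22. The causes of these changes were not tested. Low counts limit MMP2, MMP9 and MMP3.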

Other observations

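CAV1, which encodes the main protein of caveolae and was listed as a marker of this line, fell with both siRNAs. It ran from 432 to 485 CPM in siCtrl (median 470), from 399 to 423 in siRagC1 (median 413) and from 359 to 423 in siRagC2 (median 414). Every library of either siRNA was below every siCtrl library, which held for 0.314% and 0.542% of all genes in the lower direction. The log2 fold changes were -0.17 ± 0.04 (SE, adjusted p = 0.0312 in edgeR) and -0.19 ± 0.04 (adjusted p = 0.0131). No other of the 9 markers passed with either siRNA, and of the 8 luminal or epithelial markers 5 were tested and 0 passed in edgeR.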
